A study of Nicotiana tabacum with 20 samples.

Results

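In tobacco leaves carrying a hairpin against the retrotransposon Tnt1, 15 features held a level in hairpin line 1 that was at least 2-fold away from every other group, in the T1 generation and in its selfed T2 progeny alike. They were chosen from 24069 UniGene sequences, called features here, by their read levels. Each level was the mean of 4 libraries, scaled by a median-ratio size factor and with 1 added. A feature entered the high set when both line 1 groups stood at 20 or more and at least 2-fold above each of line 8, the empty vector and wild type. It entered the low set when both stood at least 2-fold below each of these 3 groups, which then had to be at 20 or more. The 2 generations also had to lie within 2-fold of each other. These conditions left 12 features in the high set and 3 in the low set. Because levels in all 20 libraries chose the members, their distance from the other groups is a description and was not tested.

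Tnt1 is an LTR retrotransposon of tobacco, a mobile element that is transcribed to RNA and copied back into DNA by its reverse transcriptase. A hairpin transcript is cut by plant Dicer-like enzymes into small RNAs, and these direct the silencing of RNAs and, in some cases, of chromatin that match their sequence. Lines of 1 construct differ in the site and number of insertions and in changes that arise in tissue culture, and both can segregate when a plant is selfed.

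The 5 groups had 4 libraries each, all from leaves of *Nicotiana tabacum* plants aged 45 days and grown in vitro in 14 h of light at 24 °C. HP1_T2 came from self-pollination of HP1_T1, and HP1_T1 and HP8_T1 were T1 plants of the hairpin lines 1 and 8, labelled as regenerants from transformation. All 3 hairpin groups carried a sense and an antisense fragment of the Tnt1 reverse transcriptase around an intron, driven by the 35S promoter and ended by the OCS terminator, with hygromycin resistance and the GUS reporter. The empty-vector group C, also regenerants, had the 35S promoter, intron, OCS terminator and hygromycin resistance without the fragment or GUS, and WT was wild type with no transgene. The labels do not say that libraries of a group came from different plants, so the p-values below measure the spread between libraries, which may be technical. In all 5 groups replicates 1 and 2, and replicates 3 and 4, were the closest pairs (chi-square per degree of freedom 1.24 to 1.38, against 1.40 to 2.05 for the other 20 pairs), so the 4 libraries of a group may not be independent. Line 1 and line 8 are 1 line each, so the effect of a line and of its insertion site cannot be told apart.

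Libraries held 1958952 to 3638494 gene reads, of which 1 feature took 73.8% to 90.5%, and 199341 to 647426 reads lay outside it. The reads outside it were fewest in C, with a mean of 258725, against 456949 in HP1_T2, 543794 in HP1_T1, 573815 in HP8_T1 and 502229 in WT. The files give identifiers without gene names, and 0 of the 24069 identifiers were found among the 79372 genes of the reference table used, so leaf markers, the transgene and Tnt1 itself were not checked. By the naming rule, the 2 members of each set with the largest distance are given by identifier, and the other 11 by their length, which differs for every member. No sequence of the members is shown, because none was in the sources used here.

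The conditions on level and distance were met for the high side by 42 features in HP1_T2 and by 66 in HP1_T1, and by 12 in both. These 12 are 28.6% of the HP1_T2 features and 18.2% of the HP1_T1 features. All 12 also lay within 2-fold between the generations, so that last condition removed none. For the low side, 12 features met the conditions in HP1_T2 and 31 in HP1_T1. There, 4 met them in both, 33.3% of the HP1_T2 features and 12.9% of the HP1_T1 features, and 3 of the 4 were also within 2-fold. The fourth, of 1223 bases, stood at 90.9 in HP1_T2 and 36.96 in HP1_T1, against 207 in HP8_T1, 192 in C and 1412 in WT, and its generations differed 2.46-fold.

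Most high features set apart in 1 generation leaned the same way in the other, all but 1 without reaching 2-fold. That feature, of 828 bases, reached 2.18-fold in HP1_T2 but missed the level of 20. Of the 54 high features met in HP1_T1 but not in HP1_T2, 36 still had HP1_T2 above each of HP8_T1, C and WT, with a median HP1_T2 distance of 1.15-fold from the highest of these. In the other direction, 25 of the 30 high features met in HP1_T2 alone had HP1_T1 above all 3 groups, at a median of 1.42-fold. On the low side this held for 20 of 27 features met in HP1_T1 alone and for 4 of 8 met in HP1_T2 alone. The same 3 groups serve both generations in these counts, so they describe the choice and carry no test. Line 1 also stood above C and WT for the typical feature, at median log2 differences of 0.21 to 0.41 over all features tested. From HP8_T1 these medians were −0.08 in HP1_T2 and 0.01 in HP1_T1. The share of all features with a line 1 group beyond all 3 others was not counted.

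**Figure D1:**
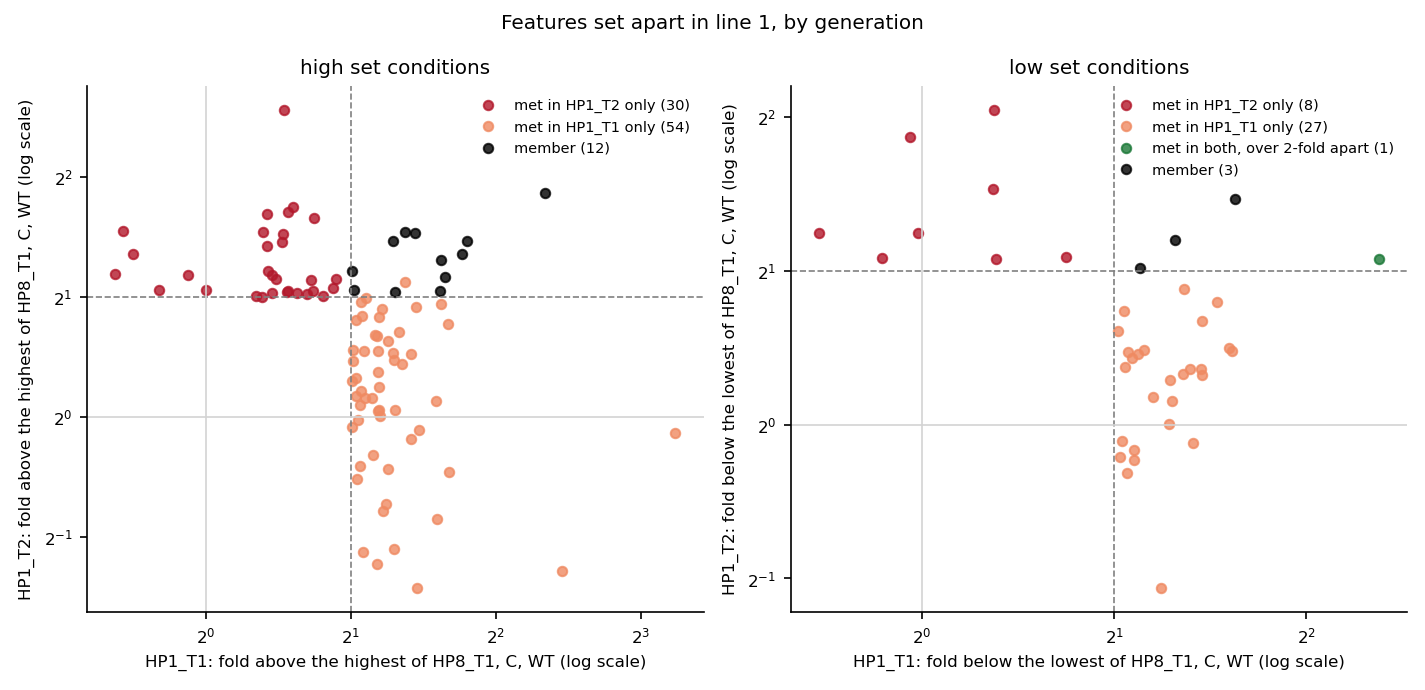
Fold distance of line 1 from the nearest of HP8_T1, C and WT, with HP1_T1 on the horizontal and HP1_T2 on the vertical log axis, for features that met the conditions in either generation; dashed lines mark 2-fold and pale lines no distance. The 12 high and 3 low members lie beyond 2-fold on both axes. Most other points lie between 1-fold and 2-fold in the generation that did not meet the conditions. In the high panel 1 orange point beyond both dashed lines missed the level of 20 in HP1_T2. In the low panel 1 green point beyond both dashed lines, of 1223 bases, is not a member because its generations differed 2.46-fold.

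The margins of the choice were narrow. The distance of members from the nearest other group ran from 2.02-fold to 3.64-fold in the high set, with a median of 2.46-fold, and from 2.03-fold to 2.76-fold in the low set. Just inside the high set lay the member of 1773 bases at 2.02-fold and that of 958 bases at 2.03-fold. Just outside lay a feature of 828 bases, at 19.9 in HP1_T2 against the 20 required, and a feature of 925 bases at 1.99-fold. In the low set the member of 639 bases was just inside at 2.03-fold, and that of 717 bases was just inside by level, at 21.5 in C. Features of 547 and 571 bases at 1.89-fold and 1.85-fold were left out. Both also missed the level of 20, with 19.0 in C for the first and 19.7 in HP8_T1 for the second.

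The group nearest to line 1 differed between members. In the high set HP8_T1 was the nearest for 8 of 12 members, WT for 3 and C for 1. For all 3 low members C was the nearest. With the median-ratio factors HP8_T1 was also above C and WT for the typical feature. The median log2 difference over all features tested was 0.31 against C and 0.42 against WT. How often each group was nearest over all features was not counted, so nothing is read from these counts. All 8 line 1 libraries lay above all 12 other libraries for 11 of the 12 high members, and below them for 3 of 3 low members. Over all 7126 features tested, 1.49% were arranged in the first way and 0.660% in the second; the rule used these groups, so nothing is read from the difference. The exception, of 398 bases, had 12.4 scaled reads in its lowest HP1_T2 library, against 15.3 in its highest C library.

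**Figure D2:**
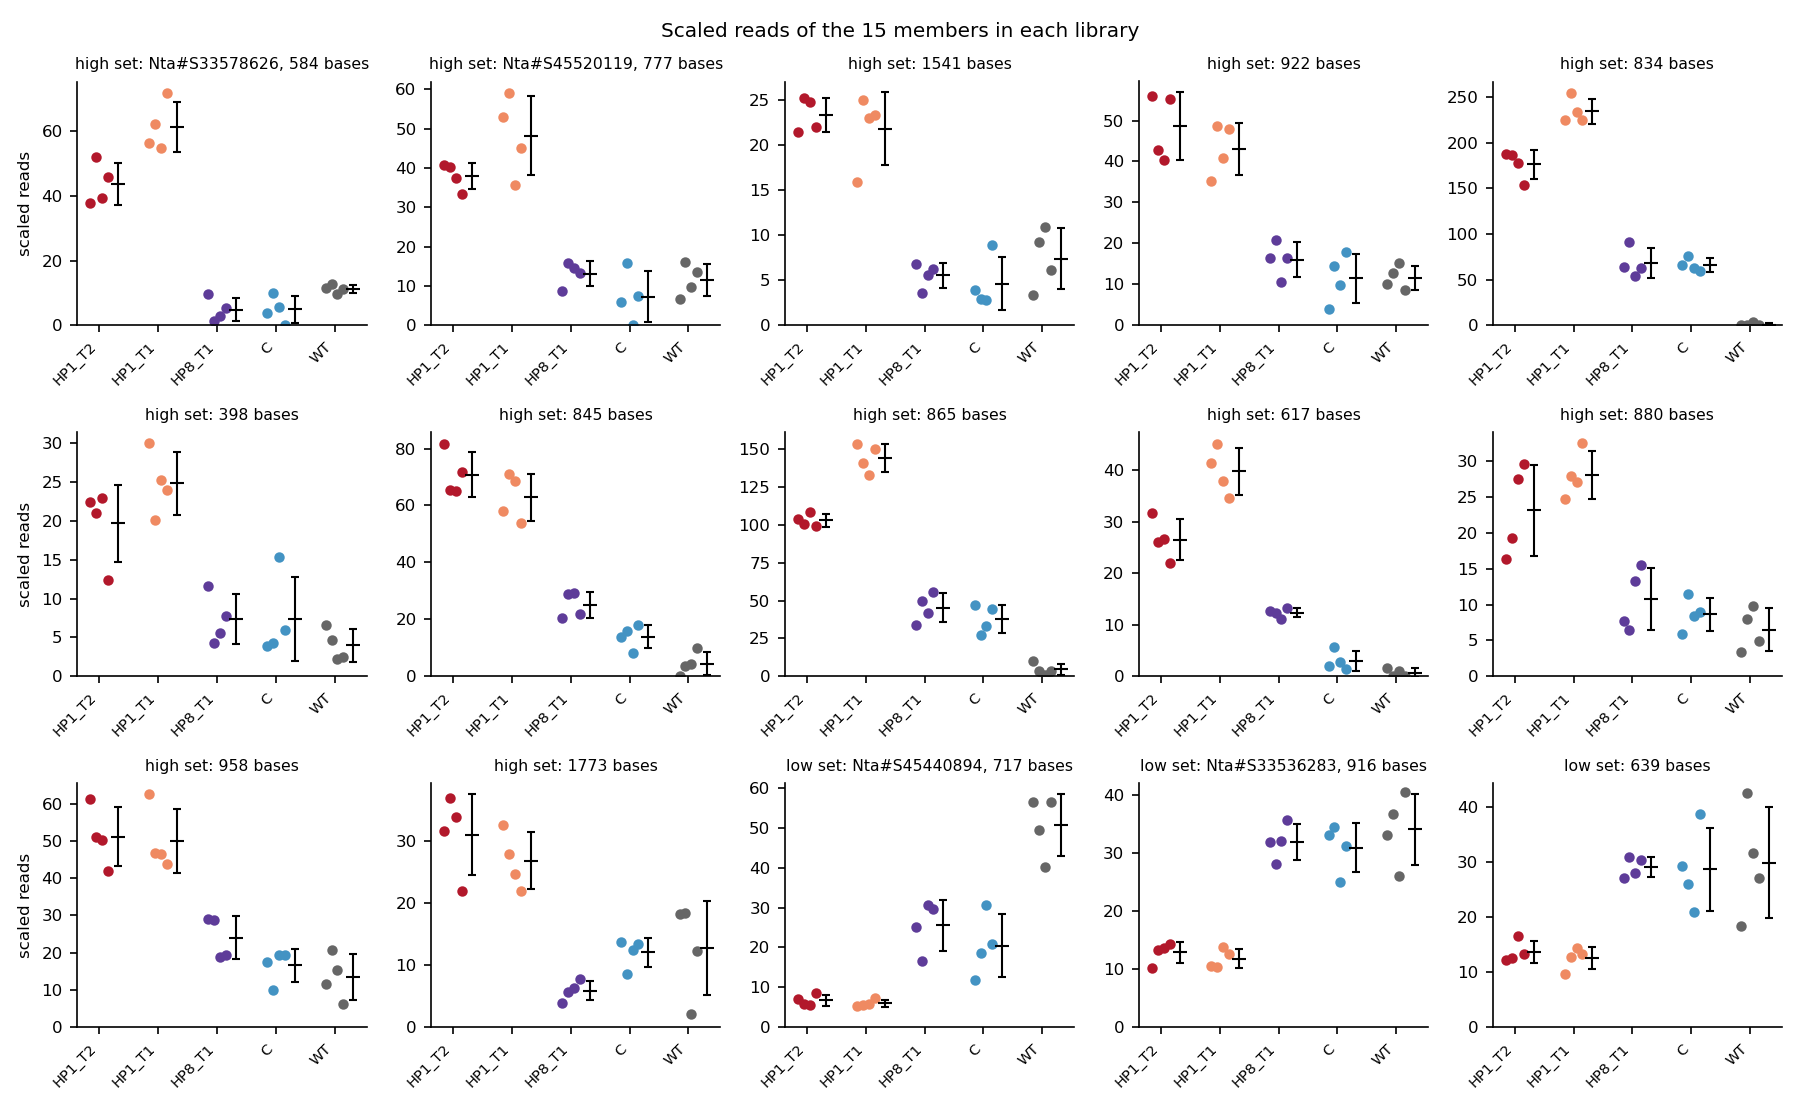
Scaled reads of each of the 15 members in every library (points, 4 per group) with the group mean and SD beside them; each panel has its own vertical axis from 0, in scaled reads. The red and orange line 1 points stand above the other groups in the 12 high panels, apart from 1 HP1_T2 library of the 398-base member, and below them in the 3 low panels.

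Among the high members the largest distance belonged to Nta#S33578626, a feature of 584 bases. It had 37.7, 52, 39.4 and 45.8 scaled reads in HP1_T2 and 56.4, 62.1, 54.7 and 71.7 in HP1_T1. The other libraries had 9.69, 1.44, 2.79 and 5.44 in HP8_T1, 3.91, 10.1, 5.56 and 0 in C, and 11.6, 12.7, 9.79 and 11.1 in WT. Every line 1 library thus stood above every other library, and WT rather than line 8 came closest, at 3.64-fold from HP1_T2. Only 45.5% of its reads were unique to it, and with unique reads it stayed in the set. Reads shared with another sequence could be split between copies by the counting, so its absolute level is uncertain.

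Nta#S45520119, of 777 bases, had only unique reads. Its scaled reads were 40.8, 40.2, 37.5 and 33.4 in HP1_T2 and 52.9, 59, 35.7 and 45.2 in HP1_T1. They were 8.72, 15.9, 14.7 and 13.2 in HP8_T1, 5.86, 15.8, 0 and 7.44 in C, and 6.65, 16.1, 9.79 and 13.5 in WT. The 2 generations overlapped each other, and so did the 3 other groups, with no library between these blocks from 16.1 to 33.4. HP8_T1 was nearest, 2.76-fold below HP1_T2.

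The 12 high members fell into 3 patterns when HP8_T1, C and WT were compared with each other. The rule did not compare these groups with one another, but their levels entered it: each had to lie below line 1 in the high set, and to reach 20 in the low set. Their tests on members, by edgeR's quasi-likelihood test over all 7126 features, are therefore not independent of the choice; log2 differences below are from that fit, with an approximate SE. In HP8_T1 against WT, 4 of the 12 were higher and 2 lower, where 29.6% and 25.3% of all features were called higher and lower, 55.0% in either direction. In C against WT, 3 were higher and 1 lower, against a background of 19.8% and 21.0%, 40.7% in either direction. In HP8_T1 against C, 1 was higher and 1 lower, with 22% and 19.5% of all features called, 41.5% in either direction. The members called in either direction were 6, 4 and 2 of 12, near or below these shares, and are not a result about the set. In bulk leaf RNA, fewer cells of a type and less RNA per cell cannot be told apart. The patterns below describe single members.

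In the first pattern WT was lowest, line 8 was higher, and line 1 was higher again; C was also called higher than WT for 3 of these 4 members. It held the most abundant member, of 834 bases, with 188, 187, 178 and 154 scaled reads in HP1_T2, 225, 254, 234 and 225 in HP1_T1, 64.0, 91.5, 54.5 and 63.0 in HP8_T1, 66.4, 76.3, 62.6 and 59.5 in C, and 0, 0, 3.26 and 0 in WT. WT had 3 reads in all, in a single library, against 352 in HP8_T1 and 172 in C. By scaled counts HP8_T1 stood 73.1-fold above WT (exact 95% counting interval 24.8 to 356) and C 70.7-fold above it (23.8 to 346). HP8_T1 and C passed the test against WT (edgeR adjusted p = 2.57e-37 and 3.33e-36), and HP8_T1 differed from C by −0.21 (SE 0.15, edgeR adjusted p = 0.258). Without WT replicate 3, WT had 0 reads and the adjusted p against it was 3.90e-34 in HP8_T1 and 9.29e-34 in C. Without HP8_T1 replicate 2, HP8_T1 was lower than C by −0.38 (adjusted p = 0.0461).

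The member of 865 bases followed the same order at a lower level. Its scaled reads were 104, 100.61, 109 and 99.3 in HP1_T2, 153, 141, 133 and 150 in HP1_T1, 33.9, 49.7, 41.9 and 56.0 in HP8_T1, 46.9, 27.4, 33.4 and 44.6 in C, and 9.98, 3.45, 1.09 and 3.69 in WT. The lowest line 1 library was above the highest of HP8_T1, and the lowest C library was above the highest of WT. The log2 difference from WT was 3.18 in HP8_T1 (SE 0.30, edgeR adjusted p = 1.03e-20) and 3.15 in C (SE 0.33, adjusted p = 1.43e-16). Between HP8_T1 and C it was 0.03 (SE 0.18, adjusted p = 0.904).

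These 2 members also had similar shares of unique reads, 83.7% for the 834-base member and 84.0% for the 865-base member over all libraries. By group, the unique share was 82.3% and 81.8% in HP1_T2, 82.1% and 82.3% in HP1_T1, 92.9% and 93.2% in HP8_T1, and 84.9% and 85.6% in C, with the 834-base member first. Whether they share reads with each other is not given in the files. Together they made up 42.6% ± 0.997 of the scaled reads of the high set in HP1_T2, 48.3% ± 0.519 in HP1_T1, 47.3% ± 3.96 in HP8_T1, 53.8% ± 4.52 in C and 6.24% ± 3.93 in WT (SD, n = 4 each). Counted by unique reads, the 865-base member left the set.

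The other 2 members of the first pattern were lower. The 845-base member had 65 to 81.6 scaled reads in HP1_T2, 53.8 to 71.2 in HP1_T1, 20.4 to 29.3 in HP8_T1, 8.35 to 17.9 in C and 0 to 9.83 in WT. Line 1, HP8_T1 and C did not overlap, while C and WT did. It was higher than WT by 2.14 in HP8_T1 (SE 0.34, edgeR adjusted p = 1.19e-08) and by 1.52 in C (SE 0.43, adjusted p = 0.00203). Without WT replicate 4 these differences were 2.80 and 2.17. HP8_T1 was above C by 0.61 (SE 0.28, edgeR adjusted p = 0.0640), which passed the threshold without HP8_T1 replicate 1, HP8_T1 replicate 4 or C replicate 4 (adjusted p between 0.0381 and 0.0444).

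The 617-base member separated line 8 from both controls. Its scaled reads were 31.6, 26.0, 26.5 and 22 in HP1_T2, 41.4, 45.0, 38 and 34.5 in HP1_T1, 12.6, 12.2, 11.2 and 13.2 in HP8_T1, 1.95, 5.76, 2.78 and 1.49 in C, and 1.66, 0, 1.09 and 0 in WT. The 4 HP8_T1 libraries lay in a gap between line 1 and the controls, with no overlap on either side. HP8_T1 was higher than C by 1.705 (SE 0.47, edgeR adjusted p = 0.00163) and higher than WT by 3.81 (SE 0.63, adjusted p = 3.49e-08). WT held 2 reads against 63 in HP8_T1, a ratio of 19.6 (exact 95% counting interval 5.21 to 166). C held 8 reads and was above WT by 2.11 (SE 0.94, adjusted p = 0.0595), which passed without C replicate 4 or WT replicate 1 (adjusted p = 0.0450 and 0.0430).

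In the second pattern HP8_T1, C and WT passed no test against each other. It held Nta#S45520119 and the members of 1541, 922, 398, 880 and 958 bases, 6 in all. Their HP8_T1 means were 5.55 to 24.0 scaled reads, their C means 4.62 to 16.6 and their WT means 3.97 to 13.4. The same 6 members had HP1_T2 means of 19.7 to 51.2 and HP1_T1 means of 21.8 to 50. At such levels the spread was wide: SEs of the log2 differences among HP8_T1, C and WT ran from 0.27 to 0.53. For the 958-base member HP8_T1 exceeded WT by 0.51 (SE 0.27, edgeR adjusted p = 0.0928), and this passed without HP8_T1 replicate 3 or WT replicate 2 (adjusted p = 0.0474 and 0.0233). Without C replicate 2, Nta#S45520119 was lower in C than in WT by −1.498 (adjusted p = 0.0159) and higher in HP8_T1 than in C by 1.40 (adjusted p = 0.0172).

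In the third pattern line 8 was lower than WT while line 1 was higher than both. Nta#S33578626 was lower in HP8_T1 than in WT by −1.58 (SE 0.40, edgeR adjusted p = 0.000309) and lower in C than in WT by −1.17 (SE 0.46, adjusted p = 0.0309). The C difference was lost without C replicate 1, C replicate 4 or WT replicate 2 (adjusted p between 0.0616 and 0.198) and with unique reads (adjusted p = 0.346), and it was −1.83 without C replicate 2. The longest member, of 1773 bases, had 31.6, 36.9, 33.9 and 22 scaled reads in HP1_T2, 32.6, 28.0, 24.7 and 21.9 in HP1_T1, 3.88, 5.76, 6.28 and 7.77 in HP8_T1, 13.7, 8.64, 12.5 and 13.4 in C, and 18.3, 18.4, 2.18 and 12.3 in WT. HP8_T1 lay below all C libraries, but WT ranged from below HP8_T1 to above C. It was lower in HP8_T1 than in C by −1.23 (SE 0.39, edgeR adjusted p = 0.00716) and than in WT by −1.28 (SE 0.37, adjusted p = 0.00168). Unique reads were 64.3% of its reads, and by unique reads it left the set.

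**Figure D3:**
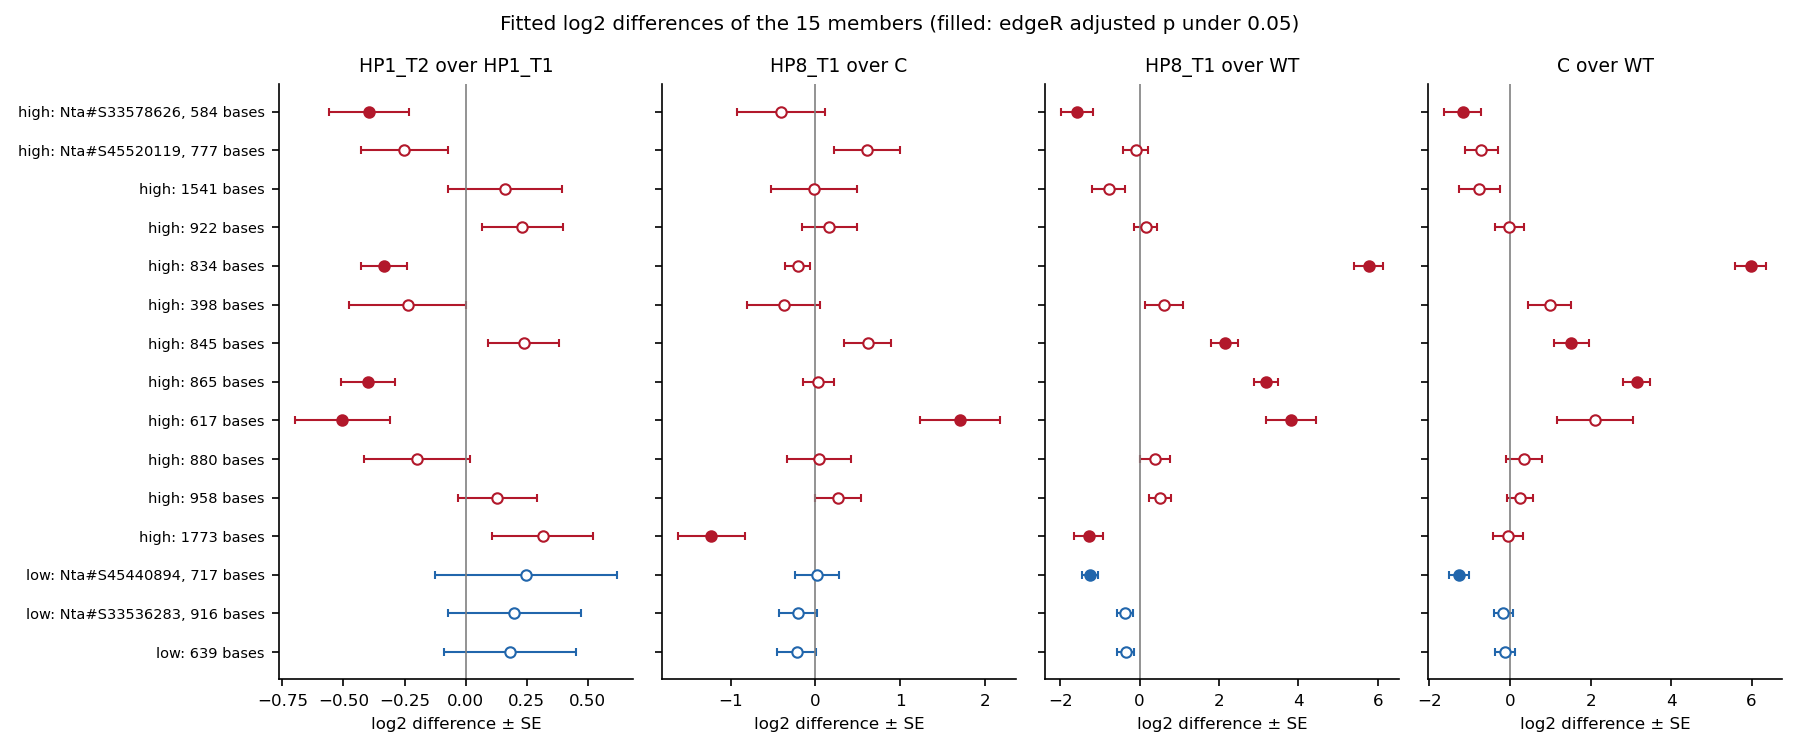
Fitted log2 differences of the 15 members with their SE in 4 comparisons, the first-named group over the second; filled points passed an edgeR adjusted p of 0.05, red points are high members and blue points low members, and the horizontal axes differ between panels. The 834-base member lies near 6 over WT in HP8_T1 and C and near 0 between them, and all differences of HP1_T2 over HP1_T1 lie within the 2-fold that the rule allowed.

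These directions rest on the scale. With reads outside the most abundant feature as the scale, the median log2 difference of all features in HP8_T1 against WT moved from 0.14 to 0.90, and with library totals to 1.499. The lower levels of Nta#S33578626 and the 1773-base member in HP8_T1 than in WT then lost their calls, at −0.82 and −0.53 with the first scale and at −0.22 and 0.08 with library totals. The second pattern rests on the scale too. In HP8_T1 against WT, 4 of its 6 members (922, 398, 880 and 958 bases) were called higher with reads outside the most abundant feature. With library totals 5 were called higher, these and Nta#S45520119. Of all 7126 features, 4016 were called higher with the first scale and 5249 with library totals. In HP8_T1 against C, library totals called 5 of the 6 higher, all but the 398-base member, beside 5166 of all 7126 features. These counts are not a result about the pattern. The 4 members of the first pattern were higher in HP8_T1 than in WT under these scales and DESeq2 size factors.

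The low set held 3 members, all with unique reads only. Nta#S45440894, of 717 bases, had 7.14, 5.87, 5.49 and 8.59 scaled reads in HP1_T2 and 5.29, 5.48, 5.75 and 7.31 in HP1_T1. It had 25.2, 16.6, 30.7 and 29.5 in HP8_T1, 11.7, 18.7, 30.6 and 20.8 in C, and 56.5, 49.5, 40.3 and 56.5 in WT. Line 1 was lowest, WT highest, and HP8_T1 and C overlapped in between.

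For this member both HP8_T1 and C were lower than WT. The log2 difference was −1.25 in HP8_T1 (SE 0.20, edgeR adjusted p = 1.81e-08) and −1.27 in C (SE 0.24, adjusted p = 3.31e-06), and HP8_T1 differed from C by 0.02 (SE 0.26, adjusted p = 0.968). With library totals as the scale HP8_T1 no longer differed from WT by the test (0.13, adjusted p = 0.593). On that scale HP8_T1 was above C, by 1.27 for this member (edgeR adjusted p = 6.97e-06), and by 1.04 and 1.29 for the 834-base and 865-base high members (adjusted p = 5.25e-09 and 2.35e-09), where the median of all features was 1.29.

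Nta#S33536283, of 916 bases, had 10.2, 13.4, 13.7 and 14.3 scaled reads in HP1_T2 and 10.6, 10.3, 13.8 and 12.6 in HP1_T1. The other groups had 32, 28.1, 32.1 and 35.8 in HP8_T1, 33.2, 34.6, 25 and 31.2 in C, and 33.3, 36.8, 26.1 and 40.5 in WT. Line 1 stood apart, and the 3 other groups overlapped throughout. The 639-base member was arranged likewise, with 12.2 to 16.5 scaled reads in HP1_T2, 9.69 to 14.4 in HP1_T1, 27.1 to 31 in HP8_T1, 20.9 to 38.7 in C and 18.3 to 42.6 in WT.

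In HP8_T1 against C, edgeR called 0 of the 3 low members in either direction, and so did the unadjusted p under 0.05 and DESeq2. In HP8_T1 against WT and in C against WT it called 0 higher and 1 lower, the 717-base member. The unadjusted p and DESeq2 gave the same 0 and 1. Over all features, 41.5% were called in either direction in HP8_T1 against C. Called lower were 25.3% in HP8_T1 against WT and 21.0% in C against WT, and called higher were 29.6% and 19.8%. These counts of 3 members are not a result about the set. For Nta#S33536283 the differences were −0.20 (SE 0.22) for HP8_T1 against C, −0.37 (SE 0.20) for HP8_T1 against WT and −0.17 (SE 0.23) for C against WT, with edgeR adjusted p of 0.484, 0.114 and 0.604.

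Between the generations of line 1, high members differed by less than the 2-fold that their choice allowed. HP1_T2 stood at 0.676 to 1.15 times HP1_T1 by group means plus 1, with a median of 0.816, beside 0.947 for all features tested. It was below HP1_T1 in 7 of the 12 members and above it in 5. Of all 7126 features tested, 3934 were below and 3187 above. The low members had 1.08 to 1.12 times the HP1_T1 level in HP1_T2, in 3 of 3. Nothing is read from these counts of members. The share of all tested features within 2-fold of each other in the fit was 80.1%.

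The 4 high members with the lowest HP1_T2 over HP1_T1 were those of 617, 834, 865 and 584 bases. The 834-base and 865-base members had HP1_T2 means of 176 ± 15.9 and 103 ± 4.30 scaled reads. Their HP1_T1 means were 235 ± 13.9 and 144 ± 9.22 (SD, n = 4 each). The 617-base member stood at 26.5 ± 3.96 in HP1_T2 and 39.7 ± 4.51 in HP1_T1. Nta#S33578626 stood at 43.7 ± 6.52 in HP1_T2 and 61.2 ± 7.70 in HP1_T1. These 4 of 12 were called lower by edgeR and 0 were called higher (0 at an unadjusted p under 0.05 and 0 with DESeq2). The count was 2 without HP1_T2 replicate 3, HP1_T2 replicate 4 or HP1_T1 replicate 2, and 2 with replicates 1 and 2, and 3 and 4, summed, a setting chosen after seeing the data. Nta#S33578626 (edgeR adjusted p = 0.0467) was no longer called in 11 of 20 repeats without 1 library, and the 617-base member (adjusted p = 0.0320) in 5, while the 834-base and 865-base members were called in all 20. With unique reads Nta#S33578626 had an adjusted p of 0.709. Over all features 17.7% were called lower and 17.1% higher, 34.8% in either direction. The rule used this contrast, so the p-values of members are not independent of the choice, and nothing is read from the counts. Of the low members edgeR called 0, with 0 at an unadjusted p under 0.05 and 0 with DESeq2.

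Summed over the 12 members, the high set had 656 ± 34.9 scaled reads in HP1_T2, 786 ± 32.8 in HP1_T1, 239 ± 24.3 in HP8_T1, 194 ± 11.9 in C and 89.0 ± 13.8 in WT (SD, n = 4 each). The sum of the low set was 33.3 ± 3.19 in HP1_T2, 30.3 ± 3.96 in HP1_T1, 86.6 ± 8.63 in HP8_T1, 80.2 ± 7.33 in C and 114.8 ± 14.3 in WT. As a part of the reads outside the most abundant feature, the high set took 155 reads per 100000 in HP1_T2 and 218 in HP1_T1, against 53.5 in HP8_T1, 48.8 in C and 14.2 in WT. The low set took 7.86 per 100000 in HP1_T2 and 8.40 in HP1_T1, against 19.4 in HP8_T1, 20.2 in C and 18.3 in WT. On this scale WT was no longer above HP8_T1 and C in the low set.

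The level of 20 in the rule kept features with few reads out of both sets. The ranks of members thus follow in part from the choice. Ranked by mean scaled reads over the 20 libraries, high members held ranks 282 to 3202 and low members 1545 to 1753 of 24069. Per 1000 bases of length, the mean over all libraries was 8.13 to 131 scaled reads in the high set and 26.6 to 35.6 in the low set. The highest level per 1000 bases was that of the 834-base member, with 212 in HP1_T2, 281 in HP1_T1, 81.8 in HP8_T1, 79.4 in C and 0.979 in WT. The median length was 855 bases in the high set and 717 in the low set, beside 888 for all features tested. All 12 high and 3 low members passed the filter on low counts.

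The coefficient of variation among the 4 libraries had a median of 14.9% over the high members in HP1_T2 and 13.9% in HP1_T1, against 24.4% in HP8_T1, 41.0% in C and 49.1% in WT, where the members are lower. Features of the same range of levels had medians of 15.8% in HP1_T2, 12.8% in HP1_T1, 23.6% in HP8_T1, 36.3% in C and 46.1% in WT.

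Which features met the conditions depended on the scale and on single libraries more than on the bound between generations. With TMM factors 13 high and 2 low features met them, of which 11 and 2 were members as reported. Reads outside the most abundant feature as the scale gave 25 high features, all 12 members among them, and 2 low features with 1 member; library totals gave 48 high features with 9 members and 0 low features. With unique reads 10 of the 12 high members and 3 of 3 low members met the conditions. A bound of 1.5-fold between generations left all 12 and 3, while a distance of 3-fold left only Nta#S33578626. Leaving out single libraries gave 10 to 15 high and 2 to 4 low features, and 7 high members and 1 low member stayed in every one of the 20 repeats.

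**Figure D4:**
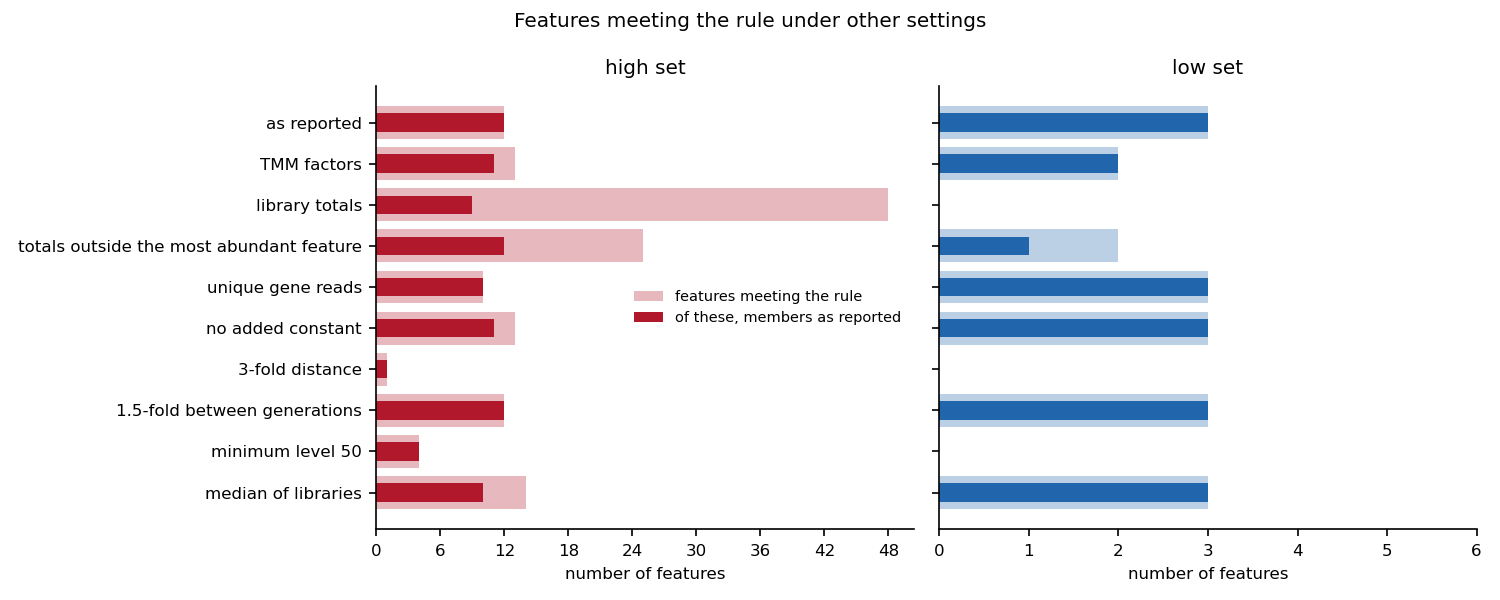
Number of features that met the rule under each setting (pale bars) and how many of these were members as reported (dark bars), for the high set in red and the low set in blue. The pale high bar is longest for library totals, at 48 features with 9 members, and the dark bar equals 12 under totals outside the most abundant feature and under a bound of 1.5-fold.

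Line 1 was above all 3 other groups in both generations for 12 of 12 high members under the median ratio, TMM, library totals and totals outside the most abundant feature. For the low set it was below them for 3 of 3 members, except with library totals, where this held for 2 of 3. The median log2 difference of line 1 from the other groups over all features tested was −0.08 to 0.41 with the median ratio and −0.16 to 1.56 with library totals. The members were chosen on these same groups, and a scale moves all features alike, so nothing is read from these counts.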

How the data were processed

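Per the labels, total RNA of leaves, isolated by a LiCl method, gave 20 SOLiD libraries. The authors deposited whole-number read counts per UniGene feature in 2 tables, WT with the hairpin groups and WT with C, each holding total and unique gene reads and feature length, per the file headers. WT counts were the same in both, and the tables were joined. The aligner, its settings and the build are not stated in the labels or headers. Members, lists and tests were chosen with earlier results of these data known.

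Scaled reads are total gene reads divided by the median ratio to the geometric mean over 1134 features with at least 10 reads in every library. Tests used edgeR 4.0.16 (R 4.3.3) on total gene reads of the 20 libraries in 1 model, with TMM normalization and the filterByExpr filter (minimum count 10, leaving 7126 features). The model had a term for group, and the quasi-likelihood test was applied with p-values adjusted by Benjamini-Hochberg over the features left, called under 0.05. The approximate SE is the size of the log2 difference divided by the square root of F. The common biological coefficient of variation was 8.91%. Alternatives were DESeq2 1.42.0, other scales, unique reads, no filter, a replicate block, leaving out each library and, added after seeing the data, summing replicates 1 and 2, and 3 and 4. The fit was also run on simulated counts, drawn independently for each library with the common spread for every feature. Such counts hold no pairing of libraries, so they say nothing about its effect on the p-values. Intervals on read ratios are exact (Clopper-Pearson, on the split of reads between groups) and cover counting error only. Named features are the 2 of each set with the largest distance from the nearest other group; further members are described by length. Among the 30 pairs of libraries within groups, chi-square divided by its degrees of freedom was 1.24 to 2.05. No library was counted as a repeat of another, but this does not show that the libraries of a group are independent. Figures and tables used Python 3.11.15.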

Additional observations from a re-analysis of the deposited data

Results flagged for a closer look

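Of 85 groups of 4 libraries examined (15 members and the 2 set sums in 5 groups), 2 had a library far from the other 3, where chance flags about 1 group in 20. In the 834-base member, WT replicate 3 had 3.26 scaled reads and the other 3 WT libraries had 0; these are the only 3 WT reads of that member. In the 958-base member, HP1_T1 replicate 1 had 62.6 scaled reads, against 43.8 to 46.9 in the other 3 HP1_T1 libraries; that library has the smallest size factor of its group, and the part of this in the value was not tested.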

How the results depend on the processing

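The number of high members (12) was 48 with library totals, 25 with totals outside the most abundant feature, 1 with 3-fold distance and 4 with a minimum level of 50. The number of low members (3) was 0 with library totals, with 3-fold distance and with a minimum level of 50. Without single libraries there were 10 to 15 high and 2 to 4 low features.

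With library totals, 7 high members were called lower in HP1_T2 than in HP1_T1, beside 2373 of all 7126 features. In HP8_T1 against C, 9 high members were higher and 0 lower, and 3 low members were higher. Of all 7126 features, 5166 were called higher and 238 lower there. In HP8_T1 against WT, 9 high members were higher and 0 lower, and 2 low members were higher and 0 lower. Of all features, 5249 were called higher and 466 lower there. In C against WT, 0 high members were lower, beside 1254 of all features. Nothing is read from these counts of members. With totals outside the most abundant feature, 2 high members were higher in HP8_T1 than in C, beside 1761 of all 7126 features. The HP8_T1 against WT comparison had 8 high members higher and 0 lower, beside 4016 and 859 of all features. The C against WT comparison had 7 higher and 0 lower, beside 2966 and 654. In HP8_T1 against C, DESeq2 size factors, the DESeq2 test and no filter each gave 2 higher members, the 845-base member being added. Over all features, 2161 of 7126, 1936 of 7126 and 2946 of 20394 were called higher. Unique reads gave 0 high members lower in C than in WT, beside 1499 of 6973 features. Library totals and totals outside the most abundant feature change the scale by construction; the cause of the other changes was not tested.

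Without single libraries, 2 to 4 high members were lower in HP1_T2 than in HP1_T1. Nta#S33578626 (edgeR adjusted p = 0.0467) lost its call in 11 of 20 repeats, with an edgeR adjusted p between 0.0502 and 0.176, and with unique reads (edgeR adjusted p = 0.709). These repeats were without HP1_T2 replicate 1, 3 or 4, HP1_T1 replicate 2 or 4, HP8_T1 replicate 3, C replicate 3 or any WT library. The 617-base member (edgeR adjusted p = 0.0320) lost it in 5, without HP1_T2 replicate 2, 3 or 4 or HP1_T1 replicate 1 or 2, with an edgeR adjusted p between 0.0577 and 0.119. In HP8_T1 against C the counts were 1 to 2 higher and 1 to 2 lower, in HP8_T1 against WT 4 to 5 higher, and in C against WT 3 to 4 higher and 0 to 2 lower.

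Some log2 differences that passed no test as reported changed sign. With library totals Nta#S33536283 then passed in HP8_T1 against C (edgeR adjusted p = 1.88e-05) and in HP8_T1 against WT (1.28e-05). So did Nta#S45520119 in HP8_T1 against WT (edgeR adjusted p = 0.000164). On that scale the median of all features was 1.29 in HP8_T1 against C and 1.499 in HP8_T1 against WT. For HP1_T2 against HP1_T1, Nta#S45440894 was −0.12 with library totals and −0.059 with totals outside the most abundant feature, and Nta#S33536283 was −0.17 and −0.11. For HP8_T1 against C, Nta#S33578626 was 0.83 with library totals and −0.88 to 0.26 without single libraries, Nta#S45440894 was −0.13 to 0.29 without single libraries, and Nta#S33536283 was 0.051 with DESeq2 size factors, 0.051 with the DESeq2 test and 1.05 with library totals. For HP8_T1 against WT, Nta#S45520119 was 0.18 with DESeq2 size factors and with the DESeq2 test, 1.26 with library totals, 0.66 with totals outside the most abundant feature, 0.086 with no filter and −0.25 to 0.10 without single libraries, and Nta#S33536283 was 1.002 with library totals and 0.39 with totals outside the most abundant feature. For C against WT, Nta#S33536283 was 0.51 with totals outside the most abundant feature. Among called differences, library totals turned the 1773-base member to 0.015 in HP8_T1 against C and 0.079 in HP8_T1 against WT, and Nta#S45440894 to 0.13 in HP8_T1 against WT.

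The correlation of same-numbered deviations from the group means was −0.04 to 0.13 over 40 pairs and above 0.1 in 14, so the numbers did not meet the limit of 0.1 in every pair that was set for treating libraries as paired. In 29 of the 40 a library correlated best with its own number, a hint from the data of shared structure. With the replicate block, calls of members were as reported in all 16 counts, for example 4 lower in HP1_T2 than in HP1_T1. With replicates 1 and 2, and 3 and 4, summed (2 columns a group, chosen after seeing the data), 2 high members were lower in HP1_T2 than in HP1_T1, Nta#S33578626 and the 617-base member losing their calls (edgeR adjusted p = 0.0721 and 0.0524), and the other 15 counts were as reported.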
